A study of Mus musculus with 15 samples.

Results

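Snai1, Snai2, Zeb1, Zeb2, Twist1, Twist2 and Vim are 7 genes of the mesenchymal cell state, and their RNA was followed in the epithelium and the mesenchyme of embryonic salivary glands of ICR mice, an outbred strain. The genes were chosen by name and found in the deposited count table by the Ensembl identifier of each symbol. They are 7 of 48709 genes in the table and 7 of the 18940 genes that passed the filter on low counts. The 15 bulk RNA-seq libraries fall into 4 groups: submandibular gland (SMG) epithelium and SMG mesenchyme at embryonic day 11.5, with 4 libraries each, and parotid gland (PG) epithelium and PG mesenchyme at embryonic day 12, with 3 and 4 libraries. No gene was altered and no agent was given in any group. SMG and PG differ in embryonic day as well as in gland, so gland and stage cannot be told apart. The labels name independent biological replicates, and the sources used here do not say how the layers were separated or whether glands were pooled.

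The SNAI and ZEB proteins are zinc finger repressors that bind E-box sequences, short DNA motifs found in the promoters of cell adhesion genes such as Cdh1 (E-cadherin), and they silence these genes when epithelial cells turn into migrating mesenchymal cells. ZEB proteins also hold a homeodomain, and microRNAs of epithelial cells limit their RNA. TWIST proteins belong to the basic helix-loop-helix (bHLH) family and bind E-boxes as pairs, often with an E protein as partner. Vim encodes vimentin, the main intermediate filament protein of mesenchymal cells. In the embryonic face, SNAI and TWIST genes are known for their roles in neural crest cells and the connective tissue they form, which includes the mesenchyme of the salivary glands. Snai2 is also known in stem and progenitor cells of several glandular epithelia.

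The E-box that SNAI and ZEB proteins prefer was searched as CACCTG and its reverse complement CAGGTG, which are the same double-stranded motif read on either strand. The windows were RefSeq promoters of GRCm38.p6, each holding 250 bases before and 50 bases after an annotated start. The motif stood in 20.2% of the 32851 windows of all genes. Of the 7 genes, 5 were matched to windows (Snai1, Zeb2, Twist1, Twist2 and Vim), with 8 windows in all, and 1 window, that of Snai1, held the motif. A list of 23 epithelial genes described in the literature as targets of SNAI or ZEB repression had 14 members matched, and 13 of them held the motif, in 17 of 21 windows (81.0%). Those genes are listed as targets partly because such motifs were found in them, so that share is no independent evidence. A match describes letters, not a bound site. The Snai1 window is printed because it is the 1 window of the 7 genes with a match. Those of Epcam, Cldn4 and Crb3 are examples, with the motif, of adhesion and polarity genes from the list of 23. All 23 genes of that list were lower in mesenchyme in both glands. Each sequence is the 250 bases before the start, 5′ to 3′, with the motif in capitals.
Snai1, chr2:167537945-167538194, plus strand: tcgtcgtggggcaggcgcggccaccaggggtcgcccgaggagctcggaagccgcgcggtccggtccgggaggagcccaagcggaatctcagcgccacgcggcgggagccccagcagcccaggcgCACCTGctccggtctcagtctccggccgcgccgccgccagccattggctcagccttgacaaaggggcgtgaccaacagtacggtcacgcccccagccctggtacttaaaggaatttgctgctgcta
Epcam, chr17:87635729-87635978, plus strand: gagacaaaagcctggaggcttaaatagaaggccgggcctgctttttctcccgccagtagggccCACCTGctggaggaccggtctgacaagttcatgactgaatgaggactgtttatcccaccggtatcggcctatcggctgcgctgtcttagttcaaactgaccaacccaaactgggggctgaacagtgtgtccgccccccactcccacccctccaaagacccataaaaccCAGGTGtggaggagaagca
Cldn4, chr5:134946935-134947184, minus strand: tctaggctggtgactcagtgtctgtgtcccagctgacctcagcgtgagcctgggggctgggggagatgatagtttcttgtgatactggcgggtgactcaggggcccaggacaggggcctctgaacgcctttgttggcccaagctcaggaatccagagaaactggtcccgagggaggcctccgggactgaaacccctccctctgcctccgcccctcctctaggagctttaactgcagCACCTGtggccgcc
Crb3, chr17:57061951-57062200, plus strand: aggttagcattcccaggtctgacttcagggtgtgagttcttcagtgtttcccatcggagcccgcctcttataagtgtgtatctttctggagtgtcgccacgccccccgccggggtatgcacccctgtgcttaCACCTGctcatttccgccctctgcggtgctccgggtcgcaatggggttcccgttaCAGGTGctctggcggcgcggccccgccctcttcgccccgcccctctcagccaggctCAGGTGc
Counted back from the start, the match of Snai1 begins at base -126, those of Epcam at -187 and -19, that of Cldn4 at -14, and those of Crb3 at -118, -63 and -7. The searched windows of Cldn4 and Crb3 held 1 further match each, after the start. Crb3 has 2 annotated starts, and the window of the first is printed.

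Total counts over genes ran from 20561142 to 29552734 per library. Levels are given as CPM, the reads of a gene scaled to a common library size, scaled by TMM factors. The layer labels were checked against 17 epithelial and 17 mesenchymal marker genes. The epithelial markers summed to 2851 to 4275 CPM in PG epithelium and 3523 to 3905 CPM in SMG epithelium, against 10.9 to 23.7 CPM in SMG mesenchyme and 100 to 605 CPM in PG mesenchyme. Each library's markers of the other layer were set against their mean in that layer, and 3 libraries stood apart from their groups. In PG epithelium replicate 2 the median mesenchymal marker was at 5.21% of its PG mesenchyme mean, against 1.37% and 1.83% in the other 2 libraries. In SMG epithelium replicate 3 that median was 4.86%, against 0.808% to 1.16% in the other 3 libraries. In PG mesenchyme replicate 1 the median epithelial marker was at 17.04% of its PG epithelium mean, against 2.48% to 3.64%. Test results of the 7 genes that rest on PG epithelium replicate 2 are given with and without it. Mean levels per kilobase and correlations between genes are given only with it. In bulk samples, fewer cells of a type and less RNA per cell cannot be told apart.

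The layers were compared first. All 7 genes were higher in mesenchyme than in epithelium in both glands, but by very different factors. Within each gland the libraries of the 2 layers did not overlap for any of them. Here and below, a lack of overlap describes the libraries and is given without its share over all genes. Zeb1, Zeb2, Twist1 and Twist2 were at low levels in epithelium, with fitted differences of 81.8-fold to 96.7-fold in SMG. Snai1 and Vim differed by 15.3-fold and 13.0-fold there. Snai2 was the exception: it was high in both layers, and its level in mesenchyme was 1.32-fold that in epithelium in SMG and 1.76-fold in PG. In edgeR's quasi-likelihood test at an adjusted p under 0.05, 7 of 7 genes were called higher in mesenchyme in SMG, where 26.7% of all genes tested were called higher and 25.2% lower. In PG, 7 of 7 were called, where 24.2% of all genes were called higher and 21.9% lower. The 7 genes were chosen as genes of the mesenchymal state, with earlier results of these data known. Their shared direction is thus partly set by how they were chosen, and their counts and medians are no independent evidence. The median log2 difference of the 7 genes was 6.35 in SMG and 4.17 in PG, beside 0.00 and 0.01 over all genes tested. Without PG epithelium replicate 2 the PG median was 5.49, beside 0.04 over all genes, so the gap between the glands was smaller without that library.

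**Figure D1:**
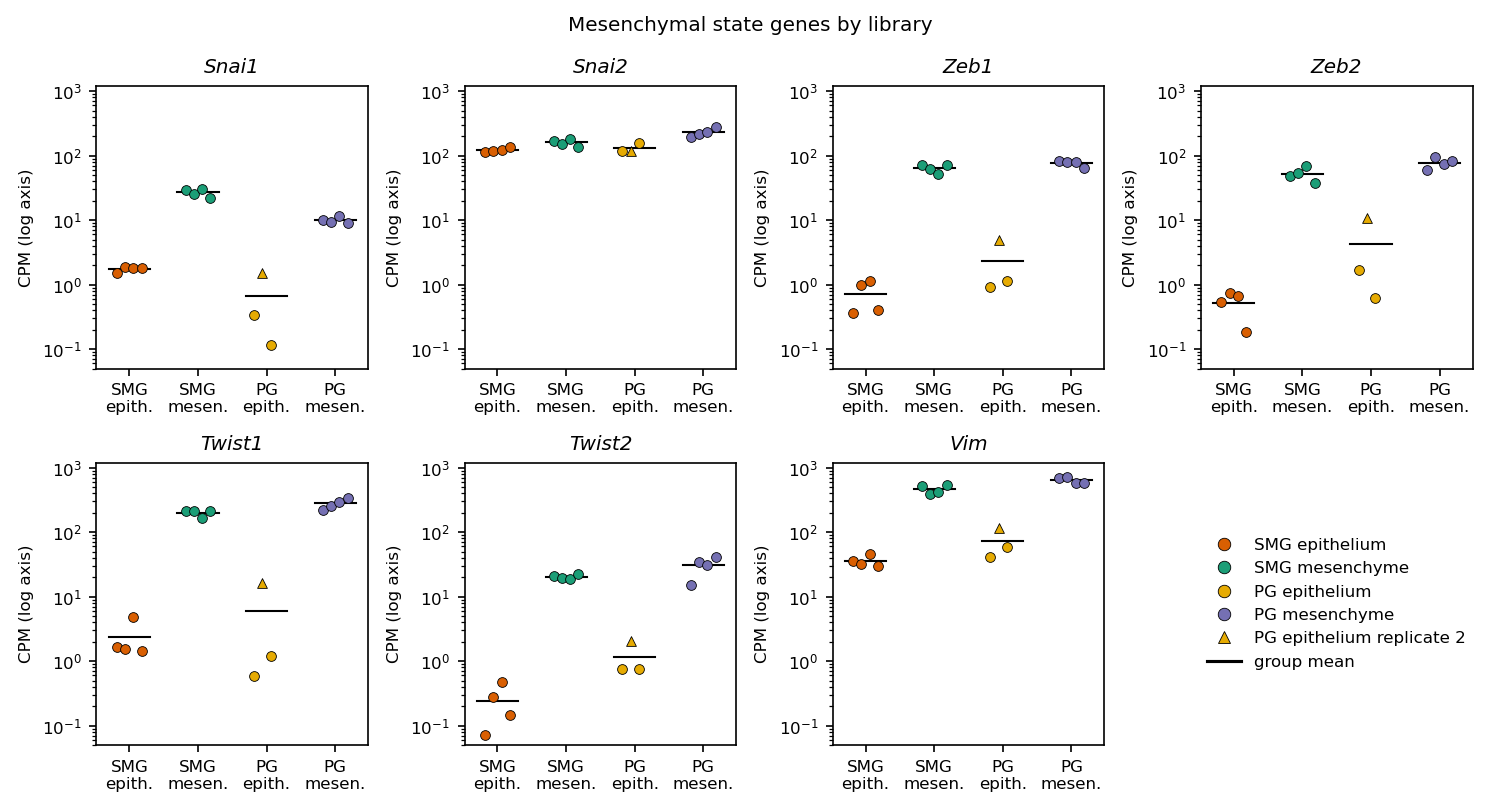
Level of each gene in every library in CPM (log axis, the same range in all panels). Points are libraries, horizontal lines are group means, and the triangle is PG epithelium replicate 2. Snai2 lies between 114 and 274 CPM in all 15 libraries, while the other 6 genes are lower in every epithelial library than in any mesenchymal library.

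Snai1, also called Snail, encodes a zinc finger repressor of Cdh1 and lies at chr2:167538195-167542814 on the plus strand of GRCm38. In SMG epithelium it was at 1.54, 1.88, 1.79 and 1.81 CPM in replicates 1 to 4, and in SMG mesenchyme at 29.7, 25.7, 30.3 and 21.8 CPM. PG epithelium had 0.333, 1.52 and 0.114 CPM in replicates 1 to 3, which rest on 8, 39 and 3 counts, and PG mesenchyme had 10.004, 9.40, 11.5 and 9.10 CPM. Snai1 was thus highest in SMG mesenchyme, lower in PG mesenchyme and low in both epithelia, and no 2 of the 4 groups overlapped. The log2 difference between layers was 3.93 ± 0.37 (SE) in SMG (adjusted p = 7.746e-07) and 3.92 ± 0.46 in PG (adjusted p = 8.991e-06). Without PG epithelium replicate 2 the PG difference was 5.49 ± 0.36.

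Snai2, also called Slug, encodes the second Snail repressor and lies at chr16:14705852-14709385 on the plus strand. Its SMG epithelium libraries had 114, 118, 122 and 136 CPM, and its SMG mesenchyme libraries 171, 152, 183 and 137 CPM. PG had 119, 116 and 159 CPM in its epithelium libraries and 196, 219, 234 and 274 CPM in its mesenchyme libraries. The highest epithelial and the lowest mesenchymal library of SMG nearly met, while in PG the layers were further apart. The log2 difference was 0.40 ± 0.12 in SMG (adjusted p = 0.01321) and 0.82 ± 0.13 in PG (adjusted p = 1.453e-04), or 0.75 ± 0.15 in PG without PG epithelium replicate 2. Unlike the other 6 genes, Snai2 was not raised in PG epithelium replicate 2, which had 0.839 times the mean of the other 2 libraries.

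Zeb1 encodes a zinc finger homeodomain repressor of Cdh1 and lies at chr18:5591860-5775467 on the plus strand. It was at 0.357, 0.972, 1.14 and 0.406 CPM in SMG epithelium and at 70.5, 61.8, 51.2 and 71.0 CPM in SMG mesenchyme. In PG it was at 0.916, 4.94 and 1.14 CPM in epithelium and at 83.1, 80.4, 80.6 and 65.1 CPM in mesenchyme. The 2 mesenchymes overlapped, and so did the 2 epithelia. The difference between layers was 6.46 ± 0.48 on the log2 scale in SMG (adjusted p = 1.248e-07) and 5.04 ± 0.44 in PG (adjusted p = 2.835e-06), or 6.23 ± 0.32 in PG without PG epithelium replicate 2.

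Zeb2, the close relative of Zeb1, lies at chr2:44983632-45117395 on the minus strand. SMG epithelium had 0.536, 0.729, 0.659 and 0.185 CPM, and SMG mesenchyme 48.3, 52.8, 67.9 and 37.8 CPM. PG epithelium had 1.67, 10.6 and 0.611 CPM, and PG mesenchyme 60.1, 94.6, 73.4 and 81.4 CPM. The layers were far apart in both glands, with PG epithelium replicate 2 standing above every other epithelial library. Zeb2 differed between layers by 6.60 ± 0.76 on the log2 scale in SMG (adjusted p = 7.561e-06). In PG it differed by 4.17 ± 0.61 (adjusted p = 2.965e-04), and by 6.11 ± 0.40 without PG epithelium replicate 2.

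Twist1, a bHLH factor that head mesenchyme needs to develop normally, lies at chr12:33957671-33959829 on the plus strand. Its libraries were at 1.64, 1.56, 4.83 and 1.44 CPM in SMG epithelium and at 214, 213, 163 and 209 CPM in SMG mesenchyme. PG epithelium was at 0.583, 16.5 and 1.18 CPM, and PG mesenchyme at 222, 255, 295 and 342 CPM. Every PG mesenchyme library was above every SMG mesenchyme library. The high epithelial values belonged to PG epithelium replicate 2 and SMG epithelium replicate 3, which were also the epithelial libraries with the highest median of mesenchymal markers. That difference between layers was 6.40 ± 0.73 on the log2 scale in SMG (adjusted p = 3.063e-05) and 5.51 ± 0.74 in PG (adjusted p = 2.54e-04), and 8.29 ± 0.53 in PG without PG epithelium replicate 2.

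Twist2, the second TWIST gene, lies at chr1:91801461-91848028 on the plus strand. It was at 0.0714, 0.278, 0.476 and 0.148 CPM in SMG epithelium and at 20.8, 19.6, 18.5 and 22.2 CPM in SMG mesenchyme. PG libraries had 0.750, 2.02 and 0.763 CPM in epithelium and 15.1, 34.6, 30.7 and 41.3 CPM in mesenchyme. PG mesenchyme spread widely, and its lowest library was replicate 1, the one with the high epithelial markers. Snai2, Zeb2 and Twist1 were also lowest in that library of PG mesenchyme, while Zeb1 was highest there. Snai1 and Vim lay within the range of the other libraries. The part of the epithelial markers in these levels was not tested. The difference between layers was 6.35 ± 0.50 on the log2 scale in SMG (adjusted p = 3.636e-08) and 4.68 ± 0.41 in PG (adjusted p = 1.26e-06), or 5.33 ± 0.44 in PG without PG epithelium replicate 2. An antisense gene, Gm29100, covers 1477 of the exon bases of Twist2 (46.5%). The kit does not mark strand, so reads of Twist2 and Gm29100 cannot be told apart there. Gm29100 was given 65 to 150 counts in each mesenchyme library and at most 8 counts in any epithelial library. These counts may include reads of Twist2, so they cannot decide whether Gm29100 itself followed the same layer.

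Vim lies at chr2:13573927-13582826 on the plus strand. SMG epithelium had 35.4, 31.5, 45.3 and 30.1 CPM and SMG mesenchyme 516, 388, 416 and 533 CPM. PG epithelium was at 41.6, 115 and 59.5 CPM and PG mesenchyme at 682, 709, 583 and 581 CPM. Vim was thus detected at 30.1 CPM or more in every epithelial library and at 388 CPM or more in every mesenchymal one. The log2 difference was 3.70 ± 0.24 in SMG (adjusted p = 6.271e-08) and 3.15 ± 0.26 in PG (adjusted p = 1.46e-06), or 3.67 ± 0.18 in PG without PG epithelium replicate 2.

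**Figure D2:**
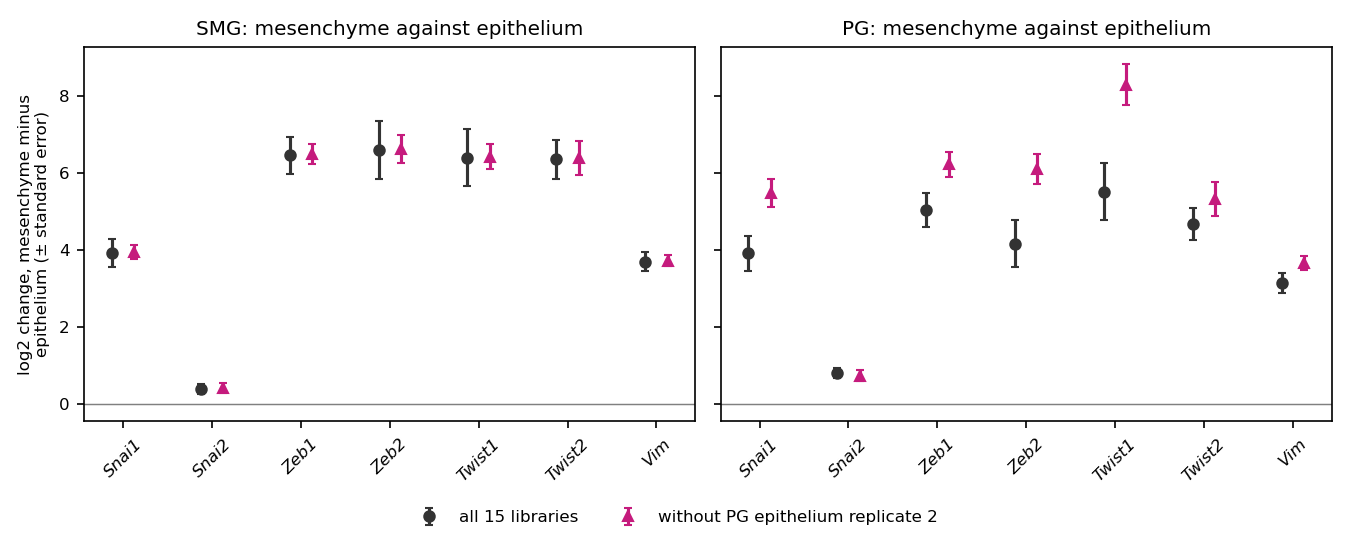
Log2 difference between mesenchyme and epithelium (mesenchyme minus epithelium) of each gene in SMG and in PG, with its standard error. Circles are fitted to all 15 libraries and triangles without PG epithelium replicate 2; Snai2 stays at 0.82 or below, and without that library Twist1 in PG moves from 5.51 to 8.29.

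The level left in epithelium was set against the mesenchyme mean of the same gland for each library. Snai2 kept 70.6%, 73.3%, 75.7% and 84.4% of its mesenchymal level in SMG epithelium and 51.4%, 50.4% and 68.7% in PG epithelium. Vim followed with 6.50% to 9.78% in SMG and 6.51% to 17.96% in PG, and Snai1 with 5.72% to 6.98% in SMG and 1.14% to 15.2% in PG. Zeb1, Zeb2, Twist1 and Twist2 lay between 0.352% and 2.42% in SMG epithelium, beside a median mesenchymal marker at 0.808% to 4.86%. In PG epithelium without replicate 2, Snai1 was at 3.33% and 1.14%, beside marker medians of 1.37% and 1.83%, whereas in all 4 SMG epithelium libraries Snai1 was above the marker median. A high epithelial level was not peculiar to Snai2: of the 17 mesenchymal markers, the matrix gene Fbn1 was at 53.9% to 110% of its mesenchymal level in SMG epithelium. The share that cells of the other layer carried over had in these values was not tested.

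**Figure D3:**
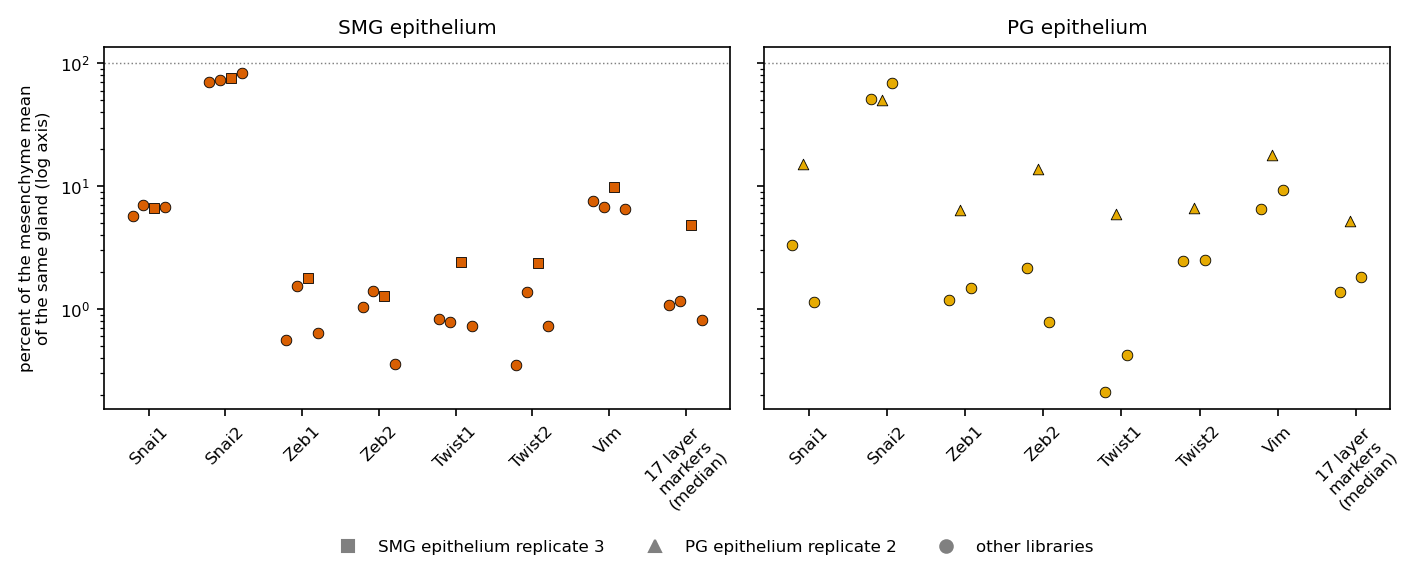
Level of each gene in every epithelial library as a percent of the mean of the mesenchyme of the same gland (log axis, dotted line at 100%), with the median of 17 mesenchymal marker genes at the right. Squares mark SMG epithelium replicate 3 and triangles PG epithelium replicate 2. Snai2 stands at 50.4% or above in all 7 libraries, and the triangle is the highest PG point of every other gene.

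PG epithelium replicate 2 had 18.7 times the Twist1, 9.32 times the Zeb2, 6.77 times the Snai1, 4.79 times the Zeb1, 2.67 times the Twist2 and 2.27 times the Vim level of the mean of the other 2 PG epithelium libraries. Marker lists of other cell types were summed in the same libraries. Endothelial markers (12 genes) were 4.54 times as high in replicate 2, skeletal muscle markers (10 genes) 3.72 times, perivascular markers (5 genes) 3.52 times, macrophage markers (12 genes) 3.40 times and mesenchymal layer markers 1.63 times. Markers of neural crest, glia and neurons stood at 1.20 times, epithelial markers at 1.18 times and erythroid markers at 0.255 times. The mesenchymal layer sum includes markers that were also high in replicates 1 and 3. Fbn1 was at 70.4% and 44.5% of its PG mesenchyme mean there, and at 36.4% in replicate 2. The median mesenchymal marker was at 5.21% in replicate 2, against 1.37% and 1.83% in replicates 1 and 3. All markers of each list had counts somewhere in each group. Their part in the higher levels of the 6 genes was not tested.

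The 2 mesenchymes were then compared. The 2 Snail genes went in opposite directions: Snai1 was 2.68-fold lower in PG than in SMG mesenchyme and Snai2 was 1.44-fold higher, and for both genes the libraries of the 2 glands did not overlap. Snai1 had means of 10.0003 ± 1.06 CPM (SD, n = 4) in PG and 26.8 ± 3.96 CPM (SD, n = 4) in SMG, a log2 change of -1.42 ± 0.34 (edgeR, adjusted p = 0.007302). Snai2 had means of 231 ± 32.9 CPM (SD, n = 4) in PG and 161 ± 20.1 CPM (SD, n = 4) in SMG, a log2 change of 0.52 ± 0.12 (edgeR, adjusted p = 0.005308). These were the 2 calls among the 7 genes, 1 in each direction, where 15.3% of all genes were called higher in PG mesenchyme and 9.43% lower.

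The other 5 genes had log2 values above 0 that did not pass the test. Zeb1 was at 0.28 ± 0.35 (adjusted p = 0.6256), Zeb2 at 0.58 ± 0.53 (adjusted p = 0.4839) and Twist2 at 0.59 ± 0.33 (adjusted p = 0.2268), with overlapping libraries. Twist1, with means of 279 ± 52.0 CPM in PG and 200 ± 24.8 CPM in SMG (SD, n = 4 each), was at 0.48 ± 0.63 (adjusted p = 0.643). Vim, with means of 639 ± 66.4 CPM and 463 ± 71.7 CPM, was at 0.46 ± 0.24 (adjusted p = 0.1911). For Twist1 and Vim the libraries of the 2 glands did not overlap. These calls differed between fits. In a fit of the 8 mesenchyme libraries alone, Zeb2 (adjusted p = 0.04684), Twist1 (adjusted p = 0.03981) and Vim (adjusted p = 0.0211) were called higher in PG. Vim was also called without PG epithelium replicate 2 (adjusted p = 0.03164). Skeletal muscle markers summed to 1106 to 2326 CPM in PG mesenchyme and 55.3 to 255 CPM in SMG mesenchyme, perivascular markers to 190 to 375 and 20.5 to 79.6 CPM, macrophage markers to 81.3 to 96.9 and 38.8 to 69.4 CPM, and endothelial markers to 423 to 516 and 540 to 709 CPM. Their part in the gland differences was not tested.

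In epithelium, the calls between the glands changed with single libraries, most of all with PG epithelium replicate 2. With all libraries, Zeb2 (log2 change 3.01 ± 0.82, adjusted p = 0.02282), Twist2 (2.26 ± 0.55, adjusted p = 0.01032) and Vim (1.02 ± 0.26, adjusted p = 0.02042) were called higher in PG than in SMG epithelium. These were 3 of 7 genes, where 7.07% of all genes were called higher and 4.66% lower. Snai1 was at -1.41 ± 0.47 (adjusted p = 0.06596), Zeb1 at 1.70 ± 0.54 (adjusted p = 0.05526), Twist1 at 1.37 ± 0.83 (adjusted p = 0.3416) and Snai2 at 0.10 ± 0.13 (adjusted p = 0.699). Without PG epithelium replicate 2, none of the 3 calls was made: Zeb2 was at 1.10 (adjusted p = 0.1809), Twist2 at 1.64 (adjusted p = 0.07334) and Vim at 0.52 (adjusted p = 0.08606). Snai1 was then the 1 gene of the 7 called, 7.72-fold lower in PG (-2.95 ± 0.36, adjusted p = 4.209e-05), where 9.93% of all genes were called in either direction, while Zeb1 was at 0.54 (adjusted p = 0.4369) and Twist1 turned to -1.38 (adjusted p = 0.1399). The call of Zeb2 was also lost without SMG epithelium replicate 1 (adjusted p = 0.05672) or replicate 4 (adjusted p = 0.06512), and that of Vim without SMG epithelium replicate 2 (adjusted p = 0.05871) or replicate 4 (adjusted p = 0.05725). Zeb1 was called higher in PG without SMG epithelium replicate 3 (adjusted p = 0.04937), PG epithelium replicate 1 (adjusted p = 0.01715) or PG epithelium replicate 3 (adjusted p = 0.03034).

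Whether the layer difference depended on the gland was tested by the interaction, the PG layer difference minus the SMG one. In edgeR's test at an adjusted p under 0.05, 0 of the 7 genes were called, where 14.3% of all genes were called. At an unadjusted p under 0.05 there were 4 of the 7, and DESeq2 called 1 (Twist2, adjusted p = 0.02334). The share over all genes is not given for either of these counts, so they cannot be set against a background. The values ran from -2.43 for Zeb2 (adjusted p = 0.114) to 0.42 for Snai2 (adjusted p = 0.1462), with Snai1 at -0.01 ± 0.58 (adjusted p = 0.9984). Without PG epithelium replicate 2, Snai1 was called at 1.53 ± 0.40 (adjusted p = 0.01415), a larger layer difference in PG, where 13.4% of all genes were called, and the other 6 ran from -1.05 for Twist2 to 1.87 for Twist1. Without PG epithelium replicate 3, Snai2 (0.56, adjusted p = 0.04733) and Zeb2 (-2.96, adjusted p = 0.01843) were called, and without SMG epithelium replicate 3, Twist2 (-2.20, adjusted p = 0.04049).

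To compare levels between genes, CPM was divided by the length of all annotated exons of a gene in kilobases. Zeb2 has 19942 such bases, against 1621 for Snai1, so a gene whose transcripts use part of its exons is understated on this scale. The length of Twist2 includes the bases shared with Gm29100, where reads cannot be assigned to either gene. Its level per kilobase and its share of the TWIST pair are therefore less certain. In SMG mesenchyme the order of mean levels per kilobase was Twist1 (123), Vim (97.7), Snai2 (79.5), Snai1 (16.6), Twist2 (6.39), Zeb1 (6.20) and Zeb2 (2.59). The libraries of neighbours overlapped from Twist1 to Vim to Snai2 and from Twist2 to Zeb1. PG mesenchyme had the order Twist1 (171), Vim (135), Snai2 (114), Twist2 (9.59), Zeb1 (7.53), Snai1 (6.17) and Zeb2 (3.88). There the first 3 again overlapped as neighbours, and so did Twist2, Zeb1 and Snai1. In SMG epithelium Snai2 led with 60.5 CPM per kilobase, followed by Vim at 7.50, Twist1 at 1.46 and Snai1 at 1.08, and the remaining 3 genes were at 0.0766 or less. In PG epithelium, with replicate 2 included, Snai2 led with 64.9 and Vim followed at 15.2, and all neighbours after Snai2 overlapped. Snai2 was thus the gene of the 7 with the highest level per kilobase in both epithelia and the third in both mesenchymes.

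Each pair of relatives was also split into shares on the scale per kilobase. Snai2 made up 98.1% to 98.4% of Snai1 plus Snai2 in SMG epithelium and 82.2% to 83.5% in SMG mesenchyme. In PG its share was 98.4% to 99.9% in epithelium and 94.0% to 96.0% in mesenchyme, so the libraries of the 2 mesenchymes did not overlap in the Snail balance. Zeb1 made up 59.4% to 78.5% of Zeb1 plus Zeb2 in SMG mesenchyme and 60.8% to 72.9% in PG mesenchyme, which overlap. Twist1 made up 94.5% to 95.5% of Twist1 plus Twist2 in SMG mesenchyme and 93.5% to 96.6% in PG mesenchyme, which overlap too. In PG epithelium the Twist1 share was 60.3% and 75.1% in replicates 1 and 3, which rest on 14 and 31 Twist1 counts and 18 and 20 Twist2 counts. It was 94.1% in replicate 2, which is within the range of PG mesenchyme. SMG epithelium was at 91.6% to 97.8%, on 2 to 13 Twist2 counts per library.

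**Figure D4:**
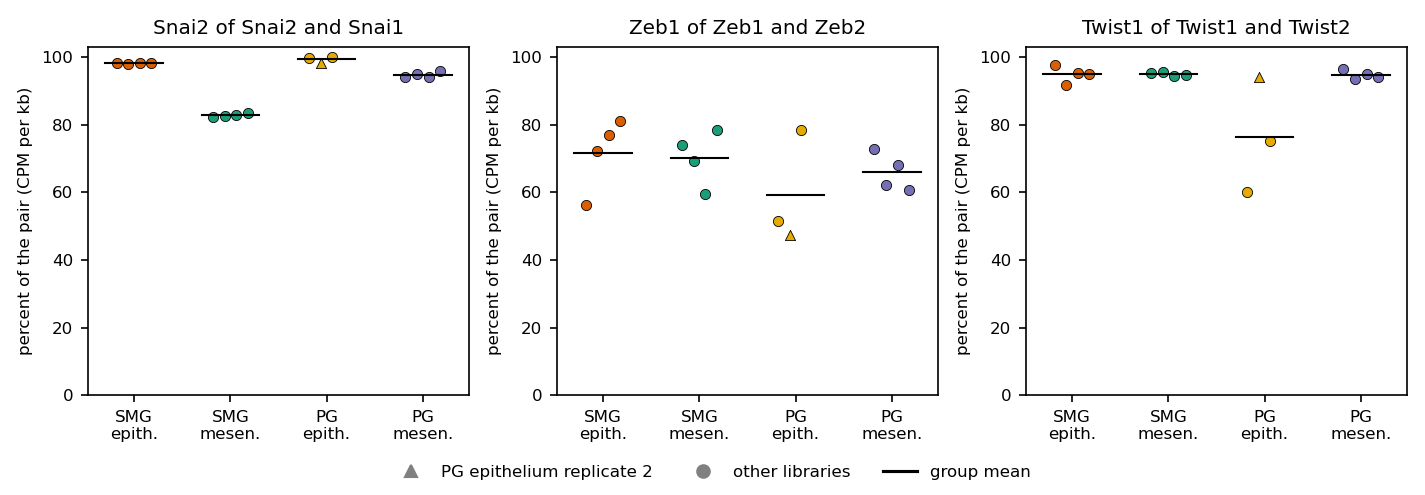
Share of the first-named gene in each pair of relatives, in percent of the pair's summed CPM per kilobase, by library. Points are libraries, lines are group means, and triangles are PG epithelium replicate 2. The Snail balance separates SMG mesenchyme (82.2% to 83.5%) from all other groups, while the ZEB and TWIST balances of the 2 mesenchymes overlap.

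Among the partners of TWIST proteins and their inhibitors, the E protein genes Tcf4 and Tcf12 were higher in mesenchyme in both glands, while the third, Tcf3, was slightly lower in SMG mesenchyme (log2 -0.26, adjusted p = 0.02659, and 0.05012 without PG epithelium replicate 2) and was at -0.07 in PG (adjusted p = 0.5771). Of 7 genes tested, 3 were called higher and 2 lower in SMG mesenchyme than in SMG epithelium, and 2 higher and 1 lower in PG. For this list and those that follow, the shares over all genes are 26.7% higher and 25.2% lower by layer in SMG and 24.2% and 21.9% in PG, so each count of 2 of 7 lies near the background. Tcf12 was at 148.5 ± 3.298 CPM in SMG epithelium and 538 ± 47.2 CPM in SMG mesenchyme (log2 1.86, adjusted p = 3.449e-10), and Tcf4 rose by 1.82 in SMG and 2.10 in PG on the log2 scale. Id2, whose protein keeps E proteins from binding DNA, was higher in mesenchyme in SMG (0.81, adjusted p = 0.007046) and lower in PG (-0.78, adjusted p = 0.01444). Id4, of the same inhibitor family, was at 50.7 ± 4.47 CPM in SMG epithelium and 5.91 ± 2.12 CPM in SMG mesenchyme (log2 -3.10, adjusted p = 7.344e-06), the largest layer change of the list in SMG. Between the mesenchymes, Tcf4 was higher in PG (0.71, adjusted p = 2.214e-05) and Tcf12 lower (-0.59, adjusted p = 9.77e-05). Id1 (-0.96, adjusted p = 0.02287) and Id2 (-1.20, adjusted p = 0.001205) were also lower in PG, and Id4 was higher (1.21, adjusted p = 0.02335).

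Relatives of the 7 genes that passed the filter differed between the mesenchymes. Of 11 related Snail superfamily and TWIST-type bHLH genes, 6 passed, and in mesenchyme 4 of the 6 were higher and 2 lower in PG than in SMG, where 15.3% of all genes were called higher and 9.43% lower. Between the epithelia 1 of the 6 was called, where 7.07% of all genes were called higher and 4.66% lower in PG. Msc, a bHLH repressor of muscle precursors, was at 3.596 ± 2.71 CPM in SMG and 31.5 ± 10.3 CPM in PG mesenchyme (SD, n = 4 each; log2 3.13, adjusted p = 3.287e-04). Tcf21 (2.93, adjusted p = 3.575e-04) and Scx, a factor of tendon precursors (2.503, adjusted p = 0.003194), were also higher in PG. Tcf15 (-2.001, adjusted p = 3.011e-04) and Hand2, a factor of jaw mesenchyme (-1.92, adjusted p = 0.04375), were lower in PG. The third Snail gene, Snai3, was the 1 relative that was lower in mesenchyme than in epithelium in both glands, with 2.57 ± 0.386 CPM in SMG epithelium, 0.0298 ± 0.0384 CPM in SMG mesenchyme, 1.30 ± 0.191 CPM in PG epithelium and 0.405 ± 0.371 CPM in PG mesenchyme. The PG mesenchyme levels of Msc and Scx stand beside the higher muscle markers of that group.

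Of 14 genes for corepressors that SNAI and ZEB proteins recruit, 1 was higher and 8 were lower in mesenchyme in SMG, where 25.2% of all genes were called lower. In PG 1 was higher and 8 were lower as well, where 21.9% of all genes were called lower, and without PG epithelium replicate 2 the counts were 0 and 8. The LIM protein gene Ajuba had the largest of these differences, with a log2 change of -2.33 ± 0.16 in SMG (adjusted p = 2.255e-08) and -1.74 ± 0.17 in PG (adjusted p = 1.283e-06). Among 8 genes that act on the stability of SNAI proteins, the deubiquitinase gene Usp27x was higher in mesenchyme in both glands (1.32, adjusted p = 4.06e-05, and 0.72, adjusted p = 0.01272). The counts for that list were 2 higher and 2 lower in SMG, and 2 higher and 0 lower in PG, beside shares over all genes of 26.7% and 25.2% in SMG and 24.2% and 21.9% in PG.

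TGF-beta signalling is a known inducer of SNAI, ZEB and TWIST genes. Of 12 ligand, receptor and SMAD pathway genes, 4 were higher and 5 lower in SMG mesenchyme than in SMG epithelium, and 6 were higher and 3 lower in PG. The share called over all genes in SMG was 26.7% higher and 25.2% lower, and in PG 24.2% and 21.9%, so the 4 of 12 and the 3 of 12 lie near it. The ligand gene Tgfb2 was at 26.04 ± 5.27 CPM in SMG epithelium and 225 ± 21.9 CPM in SMG mesenchyme, a log2 change of 3.11, and it changed by 2.61 in PG. Tgfb3 (2.64 in SMG and 2.91 in PG) and the receptor gene Tgfbr2 (1.93 and 2.14) were also higher in mesenchyme, and Smad3 was lower (-0.79 and -0.89). Between the mesenchymes, Tgfb2 was lower in PG (-0.98, adjusted p = 7.819e-05) and Tgfbr2 higher (0.41, adjusted p = 0.03466). In epithelium, Tgfb1 (-1.30, adjusted p = 3.791e-04) and the SMAD inhibitor gene Skil (-0.69, adjusted p = 3.309e-04) were lower in PG, and without PG epithelium replicate 2 they were at -1.60 and -0.62.

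The 23 epithelial genes described as SNAI or ZEB targets were lower in mesenchyme without exception, 23 of 23 in each gland, with median log2 changes of -7.74 in SMG and -3.78 in PG (-3.83 without PG epithelium replicate 2). The list was drawn from epithelial genes, so its direction is set by how it was made. Cdh1 was at 743 ± 33.7 CPM in SMG epithelium (SD, n = 4) and 0.908 ± 1.02 CPM in SMG mesenchyme (SD, n = 4). In PG it was at 393 ± 51.7 CPM in epithelium (SD, n = 3) and 23.5 ± 28.6 CPM in mesenchyme (SD, n = 4). That mesenchyme mean rests on PG mesenchyme replicate 1 at 66.3 CPM, and without it the mean was 9.22 ± 3.17 CPM (SD, n = 3). The genes whose promoters are printed above went the same way. Epcam was at 576 and 4.29 CPM in the epithelium and mesenchyme of SMG and at 491 and 33.4 CPM in those of PG. Cldn4 was at 141 and 0.189 CPM in SMG and at 73.3 and 4.34 CPM in PG, and Crb3 at 13.2 and 0.0824 CPM in SMG and at 11.3 and 0.654 CPM in PG. Without PG mesenchyme replicate 1 the PG mesenchyme means were 13.9 CPM for Epcam, 2.61 CPM for Cldn4 and 0.360 CPM for Crb3. In mesenchyme 19 of the 23 genes were called higher in PG than in SMG, where 15.3% of all genes were called higher and 9.43% lower. The median log2 change of the 23 genes was 3.18. These values stand beside the epithelial markers of PG mesenchyme, whose median was at 2.48% to 17.04% of the epithelial mean, against 0.0601% to 0.431% in SMG mesenchyme. Their part in the 19 calls was not tested. Ovol2, itself a repressor of Zeb1 in epithelia, was the 1 matched gene of the list without the motif, and it was at 10.9 CPM in SMG epithelium and 0.0724 CPM in SMG mesenchyme.

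Other genes of the mesenchymal state did not all follow the 7. This list too was drawn from genes of the mesenchymal state, so its main direction is set by how it was made. Of 20 tested, 14 were higher in mesenchyme in each gland, where 26.7% of all genes were called higher in SMG and 24.2% in PG, such as Prrx1 (7.33 in SMG and 6.99 in PG on the log2 scale, 9.75 in PG without PG epithelium replicate 2), and 2 were lower in each gland. The forkhead gene Foxc1 was lower in mesenchyme in both glands, with 260 ± 11.8 CPM in SMG epithelium and 13.9 ± 6.09 CPM in SMG mesenchyme (log2 -4.22, adjusted p = 2.807e-06), and -4.28 in PG (adjusted p = 6.195e-06). Its relative Foxc2 was at 27.1 ± 3.43 CPM in SMG mesenchyme and 0.794 ± 0.281 CPM in PG mesenchyme (log2 -5.07, adjusted p = 7.397e-06). In the comparison of mesenchymes 5 of the 20 were higher and 5 lower in PG, where 15.3% and 9.43% of all genes were called, among them Mmp14, a membrane protease gene (1.00, adjusted p = 1.762e-07), and the fibronectin gene Fn1 (-1.18, adjusted p = 3.421e-04). Of 14 other intermediate filament genes and plectin, 6 were higher and 1 lower in mesenchyme in SMG, and 5 were higher and 4 lower in PG, where 24.2% and 21.9% of all genes were called. Without PG epithelium replicate 2 the PG counts were 7 and 2. The muscle filament gene Des was the highest of them by fold in PG (7.53, adjusted p = 2.808e-09) and is itself among the skeletal muscle markers, Nes rose by 1.68 in PG, and the linker gene Plec fell by 1.86 in SMG and 1.27 in PG.

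The genes with the pattern most like each of the 7 were found by Pearson's r of log2 CPM over the 15 libraries, which share 4 groups, so r mostly reflects group levels. Vim was closest to Lgals1 (r = 0.995), Twist2 to Col1a2 (0.994), Zeb2 to Esam, 1 of the endothelial markers (0.994), Zeb1 to the endothelial claudin gene Cldn5 (0.993) and Twist1 to Mab21l1 (0.992). Snai1 was closest to Slc9a5 (0.988) and had Bmp4 as the third (0.979), and Snai2 was closest to Sstr1 (0.943). Among the 7 genes, r was 0.957 to 0.992 for every pair of Zeb1, Zeb2, Twist1, Twist2 and Vim. It was 0.794 to 0.895 for Snai1 with those 5, and 0.517 for Snai1 with Snai2.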

How the data were processed

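Bulk RNA-seq gene counts of 15 libraries were analysed as deposited by the authors. Total RNA was made into full-length cDNA with a low-input kit that does not mark strand, per the labels' protocols. The submitters' processing notes name the tools STAR 2.5.2a, DESeq2, edgeR and limma, with no role, and list GRCm38.p3 and mm10 as builds. The sources used here do not name the program that counted reads, its strand setting or its annotation. The deposited CPM table was not used.

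The count table's 92 spike-in rows were left out. Genes were filtered by group (filterByExpr, 18940 kept), scaled by TMM and fitted in 1 model of 4 group means with edgeR 4.0.16 (quasi-likelihood F-test, robust, two-sided, R 4.3.3). P-values were adjusted by Benjamini-Hochberg over all genes tested, with a threshold of 0.05. Standard errors of log2 changes use the quasi-likelihood variance. CPM used effective library sizes. Similarity used log2 CPM with a prior count of 2. Gene symbols, positions and exon lengths came from GENCODE M21 (GRCm38), and 48349 identifiers had a symbol. Replicates within a group all differed beyond sampling noise. On simulated counts, the script called 50 of 50 genes raised by 3 on the log2 scale, 42 of 50 raised by 1, 37 of 50 lowered by 1, and 9 of 18058 unchanged genes, in the comparison of the 2 mesenchymes (18258 genes).

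The genes and lists were chosen with earlier results of these data known. Named genes are the 7 and, of each list, up to 3 called genes per direction with the largest change at 5 CPM or more in the higher group. Epcam, Crb3, Ovol2 and Snai3 were named after their values were seen. Alternatives were median-ratio scaling, no filter, DESeq2 1.42.0, a replicate block, a fit of the compared groups, and leaving out libraries.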

Additional observations from a re-analysis of the deposited data

Results flagged for a closer look

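A single library stood apart from the other 3 of its group in 3 cases, by the gap between the extreme library and its neighbour relative to the group's range. Chance flags about 1 in 20 groups. Twist1 in SMG epithelium replicate 3 was at 4.83 CPM, against 1.44 to 1.64 CPM in the other libraries, and the median mesenchymal marker of that library was at 4.86% of its mesenchymal mean. Twist1 in SMG mesenchyme replicate 3 was at 163 CPM, against 209 to 214 CPM. Zeb1 in PG mesenchyme replicate 4 was at 65.1 CPM, against 80.4 to 83.1 CPM. PG epithelium has 3 libraries and was not examined this way.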

How the results depend on the processing

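The 7 genes were higher in mesenchyme and called in all 294 combinations of gene, gland and alternative setting (21 settings). The labels do not say whether replicate numbers pair the samples. Correlations of same-numbered deviations were 0.014 to 0.283 between the SMG layers and -0.124 to 0.072 between the PG layers. Differently numbered libraries were not correlated, so these values cannot decide whether the samples were paired. With the replicate block, 1 of the 7 genes was called between the epithelia (Twist2) in place of 3, and the interaction of Snai1 was 0.12. Between the mesenchymes, 5 genes in place of 2 were called in a fit of the compared groups. Between the epithelia, 1 was called without a filter, 1 in a fit of the compared groups, 5 by DESeq2, and 1 to 4 when 1 library was left out. In the interaction, 1 in place of 0 was called by DESeq2, 0 to 2 when 1 library was left out, and 1 when PG epithelium replicate 2 and PG mesenchyme replicate 1 were both left out. Over all genes, leaving out 1 library gave 1698 to 2488 calls between the epithelia and 2185 to 2744 in the interaction. For the other settings the share over all genes is not given here, so their counts cannot be set against a background. Leaving out 1 library gave epithelial log2 changes of -0.039 to 0.20 for Snai2 and -1.38 to 1.97 for Twist1, and interactions of -0.53 to 1.53 for Snai1 and -1.49 to 1.87 for Twist1. Without both libraries these were -1.38 for Twist1 in epithelium and 1.53 for Snai1 and 1.96 for Twist1 in the interaction. The cause of these changes was not tested. Snai1 in PG epithelium rests on 3 to 39 counts per library, which limits the precision of its folds.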
